A study of Saccharomyces cerevisiae with 4 samples.

Results

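The ADE genes of Saccharomyces cerevisiae encode the enzymes that build purine nucleotides from simple precursors. The members were chosen by ORF identifier: ADE4 (YMR300C), ADE5,7 (YGL234W), ADE8 (YDR408C), ADE6 (YGR061C), ADE2 (YOR128C), ADE1 (YAR015W), ADE13 (YLR359W), ADE16 (YLR028C), ADE17 (YMR120C) and ADE12 (YNL220W). They are 10 of 5441 ORFs measured. All 10 passed the filter on low counts, a sum of 200 or more over the libraries, as did 4997 ORFs in all. Their footprints, the mRNA pieces that ribosomes shield from nuclease, were counted in 4 libraries of strain Y7092. One library was wild type with pAG416GAL-ccdB, the control plasmid. The next was labelled wild type with pAG416GAL-TIF4631, and the other two were vps35::natMX deletion strains with either plasmid. TIF4631 encodes the initiation factor eIF4G1, and VPS35 a core subunit of retromer, which returns membrane proteins from endosomes. The series asks whether these yeast counterparts of Parkinson's disease genes act together. All 4 cultures grew in synthetic defined medium to early log phase, and the plasmid genes, behind a galactose-inducible promoter, were induced for 2 h. The adenine content of the medium is not given in the sources used here.

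The pathway assembles the purine ring on phosphoribosyl pyrophosphate (PRPP) and ends at inosine monophosphate (IMP). IMP is then turned into AMP by Ade12 and Ade13, or into GMP by the IMD enzymes and Gua1. Yeast raise transcription of many ADE genes when adenine is scarce, through the DNA-binding factor Bas1 and its partner Pho2, which respond to late intermediates of the pathway. A footprint count reflects how much mRNA is present as well as how often it is translated, and mRNA itself was not analysed here. In whole-culture lysates fewer expressing cells and less RNA per cell cannot be told apart.

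ADE17 was the member that differed most between libraries. It encodes 1 of a pair of isozymes, with ADE16, that carry out the last steps to IMP. Its footprint count, scaled between libraries as described below, was 2.36-fold higher in the library labelled wild type TIF4631 than in the wild-type control. It was 3.004-fold higher in the vps35 deletion library with TIF4631 than in the deletion control. ADE1 and ADE2, which act in succession in the middle of the pathway, were higher in the same libraries by smaller ratios. The isozyme gene ADE16 and the AMP-branch genes ADE12 and ADE13 had higher values in 1 of these comparisons and lower values in the other. Each group held 1 library, so these ratios compare libraries and have no replicate check.

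The labels were checked against their target genes first. VPS35 had 2187 and 1974 counts in the wild-type libraries and 9 and 10 in the deletion libraries. TIF4631 had 8010 counts in the wild-type control, 7067 in the library labelled wild type TIF4631, 4948 in the deletion control and 103723 in the deletion library with TIF4631. The factor was therefore raised in the deletion library only. Values from the library labelled wild type TIF4631 describe a library in which TIF4631 was at a log2 ratio of -0.17 to its control. URA3, the selectable marker of pAG416 plasmids, had 15062 counts in the wild-type control, 15509 in the library labelled wild type TIF4631, 8323 in the deletion control and 1967 in the deletion library with TIF4631. It was thus close to its control in wild type, at a log2 ratio of 0.05, and lower in deletion cells, at -2.63. Whether this difference bears on the ADE genes was not tested. Of the loci altered in the Y7092 background, LEU2 and MET17 had 0 counts in all 4 libraries, where a count of 0 allows up to 3, CAN1 had 0 to 3 and LYP1 had 9 to 15. HIS3, of which that background is known to carry a partial deletion, had 747 to 1852. Summed counts ran from 11240681 to 18067205 per library. All pairs of libraries differed by more than sampling noise.

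The sequences before the start codons are shown first, because they hold a motif that most members share. The core motif bound by Bas1, TGACTC, was searched for on both strands in the 500 bases before each start codon in R64, the assembly that sacCer3 also names. It is also the core of the longer motif TGACTCA bound by Gcn4, the amino acid starvation factor. At least 1 match lay in the windows of 9 of 10 members, against 12.7% of the 6006 nuclear coding genes with such a window. At least 2 matches lay in 6 of 10 members, against 1.43% of those genes. The longer motif lay in 1 member, ADE12, against 4.01% of genes. Windows were taken whether or not another gene lies in them. A match is a description of the letters and not a measured binding site. Bas1 was already known to act on many ADE genes, so the shares of its motif describe the members and test nothing. Of the 15 stretches of 30 bases around the matches, 7 follow, for the members described most below. They run 5′ to 3′ along the gene's strand, with the motif in capitals (GAGTCA where it lies on the other strand). The ADE1 stretch holds both of its matches. ADE12 has a further match, 457 bases before its start codon, which is not printed.
ADE17, chrXIII:509570-509599, minus strand: atttgcagttttTGACTCttttttccttag
ADE17, chrXIII:509440-509469, minus strand: ccagaaatgaatTGACTCctctcataactt
ADE2, chrXV:566370-566399, minus strand: tatgctgacaaaTGACTCttgttgcatggc
ADE2, chrXV:566327-566356, minus strand: atactaagtgatTGACTCttgctgaccttt
ADE1, chrI:169146-169175, plus strand: cacGAGTCAgtcTGACTCttgcgagagatg
ADE13, chrXII:844054-844083, plus strand: cctccgcgagcaGAGTCAaacttcaaacaa
ADE12, chrXIV:234179-234208, plus strand: atccttttcattGAGTCAcagattaacaaa

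The matches nearest the start codon began 177 bases before it in ADE17, 153 in ADE2 and 217 in ADE1. In ADE1 the 2 matches lie on opposite strands, 226 and 217 bases before the start. In ADE8 they lie 181 and 167 bases before the start, and in ADE5,7 they lie 217 and 184 bases before it. The single matches of ADE4, ADE6 and ADE13 began 357, 276 and 216 bases before the start.

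The 300 bases before the start codon are printed for the isozyme pair, ADE17 and ADE16, which differ in these letters. The 6 members with 2 matches differed widely in their log2 ratio for the TIF4631 label in deletion cells, described below. It was 1.59 for ADE17, 0.74 for ADE1, 0.61 for ADE2, 0.07 for ADE5,7, -0.09 for ADE12 and -0.29 for ADE8. Whether the matches bear on the ratios was not tested. Capitals mark the motif, which the ADE16 stretch does not hold.
ADE17, chrXIII:509281-509580, minus strand: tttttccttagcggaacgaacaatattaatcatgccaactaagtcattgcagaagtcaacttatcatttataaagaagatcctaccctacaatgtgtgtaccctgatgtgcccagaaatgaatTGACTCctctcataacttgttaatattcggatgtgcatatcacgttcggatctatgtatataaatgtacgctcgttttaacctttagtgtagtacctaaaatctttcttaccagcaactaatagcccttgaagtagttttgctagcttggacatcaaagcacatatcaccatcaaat
ADE16, chrXII:201316-201615, minus strand: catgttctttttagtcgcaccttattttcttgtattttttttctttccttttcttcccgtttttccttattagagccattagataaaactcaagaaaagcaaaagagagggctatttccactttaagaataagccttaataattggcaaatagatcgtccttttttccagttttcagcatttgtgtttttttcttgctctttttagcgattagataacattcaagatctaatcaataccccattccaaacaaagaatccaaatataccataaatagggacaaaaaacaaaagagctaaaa

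**Figure D1:**
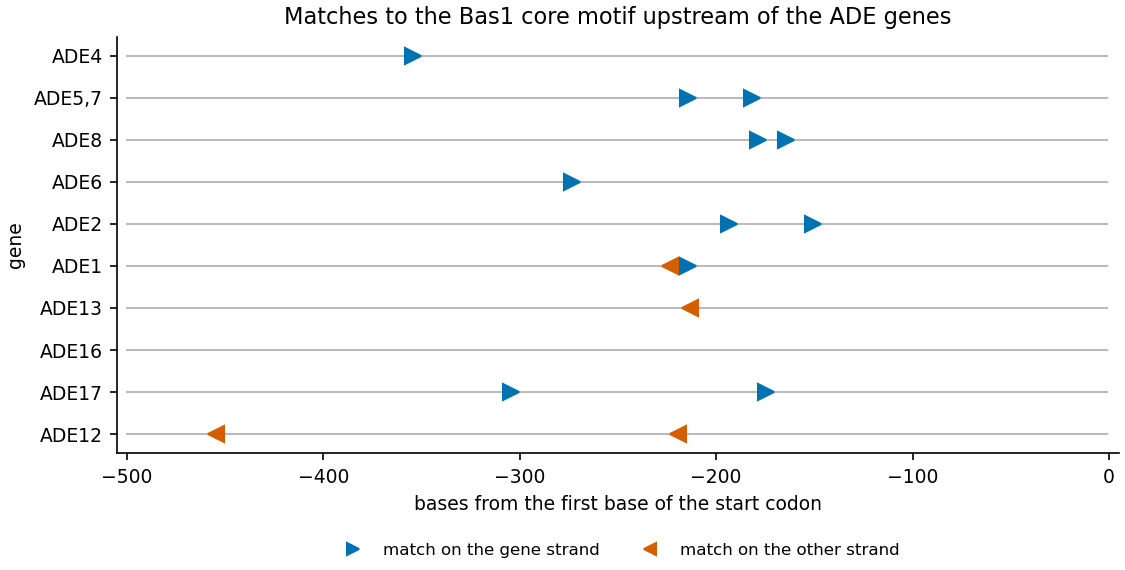
Positions of TGACTC matches in the 500 bases before the start codon of each ADE gene, in bases from the first base of the start codon (x axis), one row per gene. Right-pointing blue triangles are matches on the gene's strand and left-pointing orange ones matches on the other strand. Every row but that of ADE16 holds 1 or 2 matches.

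Exact stretches of the members are not shared with other genes. None of the members' 30-base stretches, the approximate footprint size given by the labels, occurs anywhere else in R64, and no annotated gene overlaps a member. The coding sequences of ADE16 (1776 nt) and ADE17 (1779 nt) are identical at 74.7% of aligned positions, share 0 stretches of 30 bases, and have 19 identical bases in a row at most. All members are coded in a single exon.

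Levels of different members were compared as RPKM, the deposited read density scaled to ORF length and to the reads of the dataset. By their mean over the 4 libraries the order was ADE13, ADE16, ADE12, ADE5,7, ADE6, ADE1, ADE2, ADE4, ADE17 and ADE8. The means ran from 168 RPKM for ADE13 to 40.1 RPKM for ADE8. Every pair of neighbours in that order overlapped in range over the 4 libraries, so the order of neighbours is not firm. ADE5,7 was the steadiest member, between 137 and 148 RPKM, and ADE17 the most variable, with its highest level 3.73-fold its lowest. The members together took 0.193% of all counts in each control-plasmid library, 0.223% in the library labelled wild type TIF4631 and 0.224% in the deletion library with TIF4631.

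**Figure D2:**
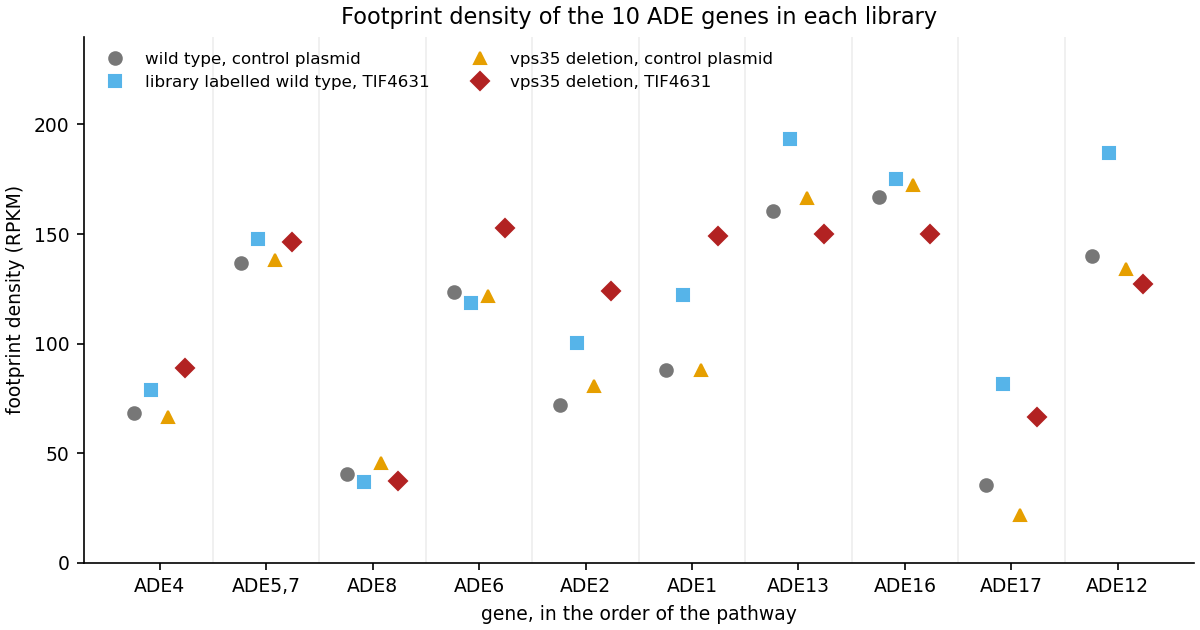
Footprint density in RPKM (y axis, from 0) of each ADE gene in pathway order (x axis), with 1 point per library. ADE17 sits at 81.7 and 66.4 RPKM in the libraries with the TIF4631 label and at 35.6 and 21.9 RPKM in the control-plasmid libraries. The points of ADE8 lie close to each other, as do those of ADE5,7.

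Log2 ratios below come from TMM-scaled counts with 0.5 added, and the ranges in parentheses are 95% intervals for counting error alone (Clopper-Pearson). An ORF was called past the rule of size when its log2 ratio was at least 1 in either direction and its interval left out 0. A lower bar of 0.5 is given beside it.

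The genes of the first enzymes all stayed below the bar of 0.5 for the TIF4631 label. ADE4 (chromosome XIII, 865559 to 867091) encodes the PRPP amidotransferase, the committed step. It stood at 68.2 RPKM in the wild-type control, 78.9 in the library labelled wild type TIF4631, 66.6 in the deletion control and 88.9 in the deletion library with TIF4631. Both libraries with the TIF4631 label were above both controls. Its log2 ratio was 0.25 (0.16 to 0.34) in wild type and 0.40 (0.30 to 0.51) in deletion cells. ADE5,7 (chromosome VII, 56482 to 58890) encodes a protein with both GAR synthetase and AIR synthetase activity. Its TIF4631-label ratios were 0.15 and 0.07 in the same order. ADE8 (chromosome IV, 1288215 to 1288859), the GAR transformylase, was the least counted member, with 321 to 453 counts per library. Its ratio was -0.10 (-0.29 to 0.10) in wild type and -0.29 (-0.51 to -0.07) in deletion cells. ADE6 (chromosome VII, 611889 to 615965), the FGAM synthetase, stood at 124, 119, 122 and 153 RPKM. The deletion library with TIF4631 was thus above the other three, at a log2 ratio of 0.31 (0.27 to 0.36) to its control.

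ADE2 and ADE1 were higher in both libraries with the TIF4631 label. ADE2 (chromosome XV, 564476 to 566191) encodes AIR carboxylase, and its loss gives yeast a red pigment. It stood at 72.03 RPKM in the wild-type control, 100.5 in the library labelled wild type TIF4631, 80.6 in the deletion control and 124 in the deletion library with TIF4631. Its log2 ratio was 0.52 (0.44 to 0.60) in wild type and 0.61 (0.52 to 0.70) in deletion cells. ADE1 (chromosome I, 169375 to 170295), which encodes the next enzyme, SAICAR synthetase, stood at 88.0, 122, 88.2 and 149 RPKM in that order. The 2 controls were close together, and both libraries with the TIF4631 label lay above them. The log2 ratio of ADE1 was 0.51 (0.41 to 0.61) in wild type and 0.74 (0.63 to 0.86) in deletion cells.

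ADE17 (chromosome XIII, 507502 to 509280) encodes AICAR transformylase and IMP cyclohydrolase. It had 1110 counts in the wild-type control, 2603 in the library labelled wild type TIF4631, 434 in the deletion control and 1914 in the deletion library with TIF4631. These are 35.6, 81.7, 21.9 and 66.4 RPKM. Its log2 ratio for the TIF4631 label was 1.24 (1.13 to 1.34) in wild type, place 13 of 4997 ORFs from the top, and 1.59 (1.44 to 1.74) in deletion cells, place 16. ADE17 was the only member past the rule of size in either comparison. The background was 0.560% of all ORFs in wild type and 1.62% in deletion cells. At the bar of 0.5, ADE1, ADE2 and ADE17 were higher in both, 3 of 10 members, where 2.84% and 5.40% of all ORFs were.

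ADE16 (chromosome XII, 199540 to 201315) encodes the same activities as ADE17 and did not follow it. It stood at 167, 175, 172 and 149.9 RPKM in the order used above. Its log2 ratio was 0.11 (0.06 to 0.17) in wild type and -0.21 (-0.28 to -0.15) in deletion cells. The share of ADE17 among the counts of the pair was 17.6% (exact binomial interval 16.7 to 18.6) in the wild-type control and 31.8% (30.8 to 32.9) in the library labelled wild type TIF4631. It was 11.3% (10.3 to 12.3) in the deletion control and 30.7% (29.6 to 31.9) in the deletion library with TIF4631. The intervals of the libraries with the TIF4631 label overlapped each other and lay apart from those of both controls. The summed density of the pair was 202, 257, 194 and 216 RPKM.

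**Figure D3:**
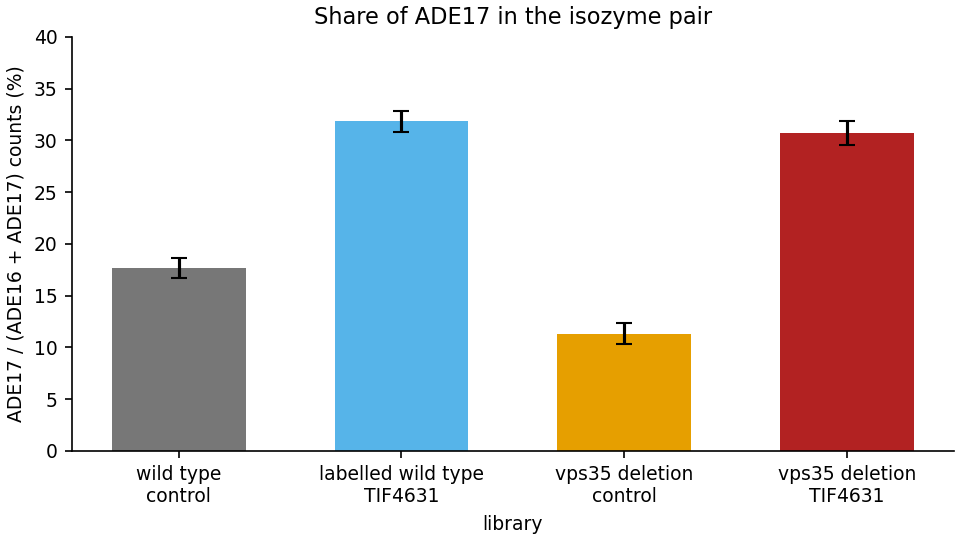
Counts of ADE17 as a percentage of the summed counts of ADE16 and ADE17 (y axis, from 0) in each library (x axis), with 95% exact binomial intervals for counting error as error bars. The share is 17.6% and 11.3% in the control-plasmid libraries and 31.8% and 30.7% in the libraries with the TIF4631 label.

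The genes of the AMP branch took opposite directions in the 2 strains. ADE12 (chromosome XIV, 234413 to 235714), the adenylosuccinate synthetase that commits IMP to AMP, stood at 139.9 RPKM in the wild-type control, 187 in the library labelled wild type TIF4631, 134 in the deletion control and 127 in the deletion library with TIF4631. Its log2 ratio was 0.46 (0.39 to 0.52) in wild type and -0.09 (-0.17 to -0.002) in deletion cells. The interval in deletion cells came to hold 0 with total count scaling, with no filter and with a filter of 1000 counts. ADE13 (chromosome XII, 844282 to 845730) encodes adenylosuccinate lyase, which acts both on the way to IMP and in the step from adenylosuccinate to AMP. It stood at 161, 193, 167 and 150.1 RPKM in the same order. Its ratio was 0.31 (0.25 to 0.37) in wild type and -0.16 (-0.24 to -0.09) in deletion cells. For both genes the library labelled wild type TIF4631 was the highest of the 4 and the deletion library with TIF4631 the lowest.

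Over the whole list, the median log2 ratio for the TIF4631 label was 0.28 in wild type and 0.19 in deletion cells, while the median over all ORFs lay within 0.01 of 0 in both. Beyond counting error, 8 of 10 members were higher and 0 lower in wild type, where 24.0% and 23.6% of all ORFs were. In deletion cells 6 were higher and 4 lower, against 30.1% and 31.3% of all ORFs. Of these ADE5,7, at 0.07, was lost without the 50 most abundant ORFs, and ADE12 under the alternatives named above. The robust SD of the log2 ratios of all ORFs was 0.18 in wild type and 0.30 in deletion cells.

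**Figure D4:**
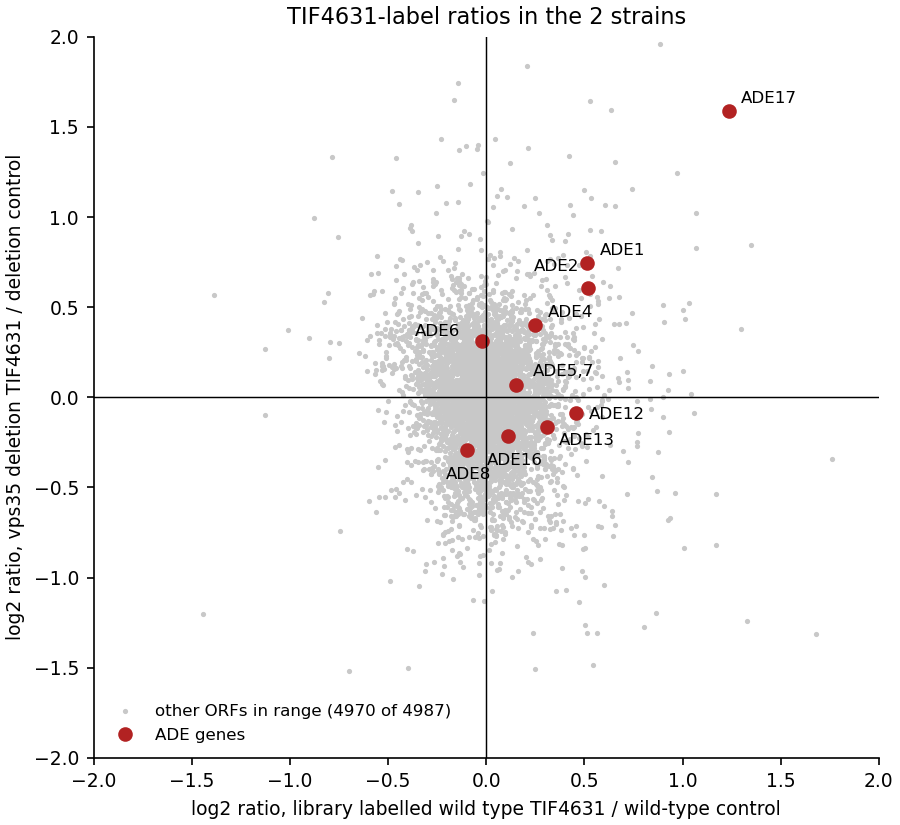
Log2 ratios for the TIF4631 label in wild type (x axis) and in vps35 deletion (y axis), which share no library. Grey points are other ORFs with both values within 2 (4970 of 4987), and red points are the 10 ADE genes. ADE17 lies at 1.24 and 1.59, ADE1 and ADE2 lie above 0.5 on both axes, and ADE12, ADE13 and ADE16 lie to the right of 0 and below it.

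Comparing vps35 deletion with wild type asks what loss of retromer does to these genes. Under the control plasmid the ADE genes differed little, with ADE17 as the exception at a log2 ratio of -0.72 (-0.89 to -0.56), a 1.65-fold lower level. ADE17 was the single member at or past the bar of 0.5 in the downward direction, where 1.84% of all ORFs were. No member was past the rule of size, against 0.800% of ORFs. Beyond counting error ADE2 was higher, at 0.14 (0.05 to 0.24), and 2 members were lower, ADE17 and, at -0.08 (-0.16 to -0.0004), ADE12. Of all ORFs 17.2% were higher and 17.3% lower in this way. ADE12 lost that standing with total count scaling, with total counts without the 50 most abundant ORFs and with no filter on low counts. The member median was -0.01.

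Under the TIF4631 plasmid the deletion library, with raised TIF4631, was set against the library labelled wild type TIF4631, without it, so strain and raised factor cannot be told apart. ADE12 was lowest at a log2 ratio of -0.63 (-0.70 to -0.56), followed by ADE13 at -0.44 (-0.50 to -0.38), ADE17 at -0.37 (-0.46 to -0.29) and ADE16 at -0.30 (-0.36 to -0.24). ADE6, ADE2 and ADE1 were higher, at 0.29, 0.23 and 0.21. By counting error 4 members were higher and 5 lower, against 33.8% and 35.3% of all ORFs. ADE5,7, at -0.09, was no longer among the lower with total count scaling. ADE12 was the 1 member lower by at least 0.5, where 10.7% of ORFs were, and none passed the rule of size, against 3.98%. The member median was -0.07. ADE17 was lower in deletion than in wild type under both plasmids, while the other members past counting error under both were ADE2, higher in both, and ADE12, lower in both.

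**Figure D5:**
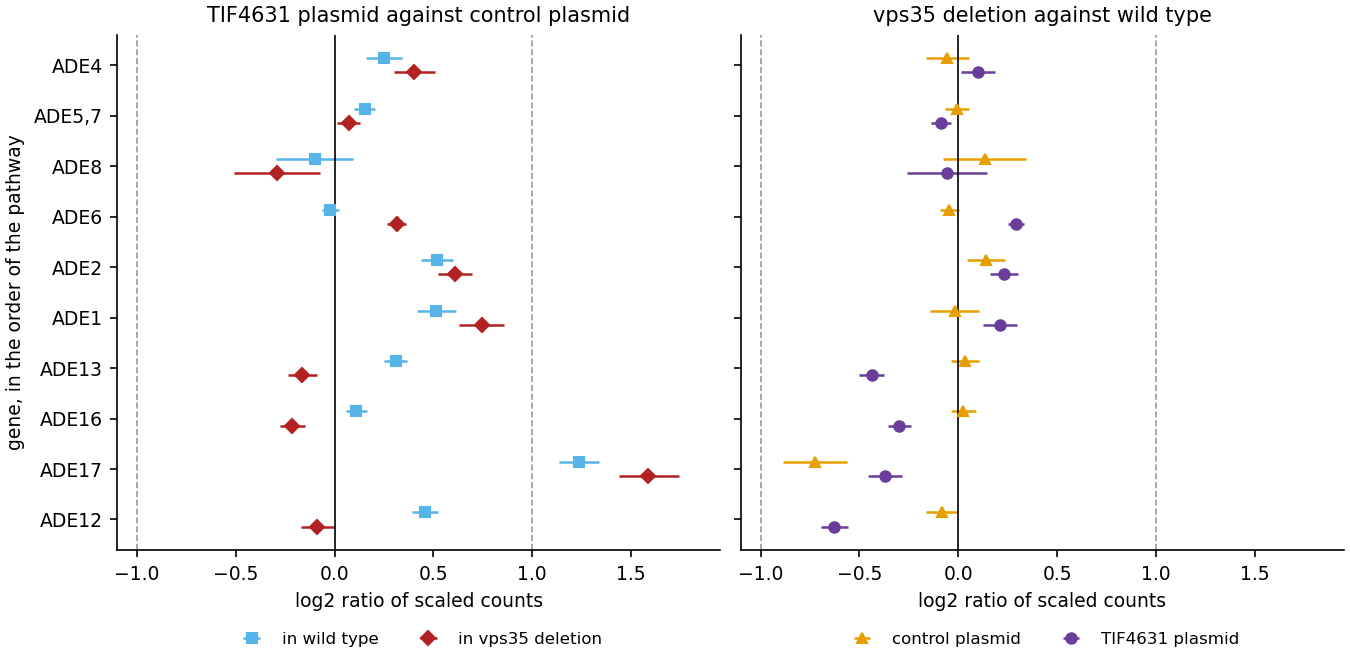
Log2 ratios of scaled counts (x axis) for each ADE gene in pathway order (y axis), with 95% counting intervals as bars. The left panel gives the TIF4631 label in wild type (blue squares) and in vps35 deletion (red diamonds). The right panel gives vps35 deletion under the control plasmid (orange triangles) and the TIF4631 plasmid (purple circles). Dashed lines mark a log2 ratio of 1 in either direction, passed only by ADE17 in the left panel.

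The interaction is the TIF4631-label ratio in deletion cells less the ratio in wild type, and addresses whether the effects of both genes depend on each other. As TIF4631 was in excess in 1 of these library pairs only, its values are differences between libraries. It was -0.54 (-0.65 to -0.44) for ADE12, -0.47 (-0.56 to -0.38) for ADE13 and -0.32 (-0.41 to -0.24) for ADE16. It was 0.35 (0.17 to 0.53) for ADE17, 0.34 (0.27 to 0.40) for ADE6 and 0.23 for ADE1. By counting error 4 members were above 0 and 4 below, where 27.5% and 31.5% of all ORFs were. Among those below was ADE5,7 at -0.08 (-0.16 to -0.003), whose interval came to hold 0 with total count scaling, with total counts without the 50 most abundant ORFs and with a filter of 1000 counts. One member, ADE12, lay at or below -0.5, where 10.6% of ORFs did, and 0 passed the rule of size, against 3.36%.

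The single test across libraries used strain and plasmid as additive terms for all ORFs together, which left 1 residual degree of freedom. The model takes the interaction of strain and plasmid as residual spread, so its SE and p-values hold no replicate error. Its plasmid term pools a pair of libraries with TIF4631 at a log2 ratio of -0.17 and a pair at 3.84. That term therefore describes the plasmid label and not raised TIF4631. By edgeR's quasi-likelihood test 0 of 10 members passed an adjusted p of 0.05 for either factor. The background was 0.620% of all ORFs for vps35 deletion and 0.00% for the TIF4631 plasmid. For the TIF4631 plasmid, ADE17 had an estimate of 1.41 on the log2 scale (SE 0.18), with an adjusted p = 0.0752 by edgeR and the same direction in both strains. This value lies near the threshold and depends on the settings: the adjusted p lay between 1.68e-06 and 0.0583 over 7 alternatives, and 6 of them passed. All of them use the same 4 libraries, and most are the same edgeR test with another scaling or filter. The lowest value is from DESeq2, which gave no adjusted p for 2228 of 4997 ORFs. ADE1, at 0.63 (SE 0.17), and ADE2, at 0.56 (SE 0.16), had unadjusted p below 0.05 and edgeR adjusted p of 0.910 and 0.999. At an unadjusted edgeR p below 0.05 there were 3 of 10 members and 168 of 4997 ORFs for the TIF4631 plasmid. The same bar was met for vps35 deletion by 1 of 10 members, ADE17, and by 348 of 4997 ORFs. After adjustment DESeq2 called 6 ORFs for the TIF4631 plasmid and limma 0. For vps35 deletion ADE17 stood at -0.54 (SE 0.18, edgeR adjusted p = 0.402) and ADE12 at -0.36 (SE 0.18, edgeR adjusted p = 0.816).

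The regulators of the ADE genes were themselves counted. BAS1, the DNA-binding activator, had 443 counts in the wild-type control, 292 in the library labelled wild type TIF4631, 253 in the deletion control and 551 in the deletion library with TIF4631. Its log2 ratio for the TIF4631 label was -0.59 (-0.81 to -0.38) in wild type and 0.57 (0.35 to 0.79) in deletion cells, so BAS1 and ADE17 took opposite directions in wild type and the same direction in deletion cells. The interaction of BAS1 was 1.16 (0.86 to 1.47), past the rule of size, as were 3.36% of all ORFs in either direction. PHO2, the partner of Bas1, stood at 0.20 and 0.24 in the TIF4631-label comparisons. GCN4 stood at 0.53 and 0.22 there, and at -0.46 for deletion under the control plasmid.

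Genes that feed the pathway, or drain it, were described by lists. None of the 5 PRPP synthetase genes PRS1 to PRS5 passed 0.5 in any comparison. Of 14 genes for one-carbon units, which the GAR and AICAR transformylase steps consume, 4 passed the rule of size upward in deletion cells with TIF4631: SHM2 at 1.84, GCV1 at 3.53, GCV2 at 2.78 and GCV3 at 1.39. Of all ORFs 1.62% passed that rule in either direction. SHM1, the mitochondrial serine hydroxymethyltransferase, went the other way, at -0.89. In wild type the same 4 lay between -0.42 and 0.21, and 0 of the 14 passed. ADE3, the cytosolic enzyme that makes the formyl donor, lay at 0.05 and -0.12, and the methylenetetrahydrofolate dehydrogenase MTD1 at 0.58 and 0.44. The median of the list was -0.04 in wild type and 0.01 in deletion cells. Under the control plasmid, deletion against wild type stood at 0.75 for GCV2, 0.41 for GCV3, 0.38 for GCV1 and 0.12 for SHM2. Under the TIF4631 plasmid these 4 passed the rule upward for deletion against wild type, and 0 of the 14 passed it downward. The interaction gave the same counts. Of all ORFs 3.98% and 3.36% passed in either direction in these 2 comparisons.

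Histidine synthesis shares AICAR with the purine pathway as a by-product. Its 7 genes had a median log2 ratio for the TIF4631 label of 0.16 in wild type and 0.53 in deletion cells. HIS4 passed the rule of size upward in wild type, at 1.03, where 0.560% of all ORFs passed it in either direction. It was lower by 1.17 on the log2 scale in the deletion library with TIF4631 than in the library labelled wild type TIF4631. In that comparison 3.98% of all ORFs passed the rule. In deletion cells HIS1 at 0.93, HIS5 at 0.87, HIS3 at 0.76 and HIS4 at 0.53 lay above 0.5, or 4 of 7, where 5.40% of all ORFs did. HIS3 counts come from a locus that is partly deleted in this background.

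Of 4 genes of the GMP branch GUA1, the GMP synthase, was measured, and IMD2, IMD3 and IMD4 were not analysed here. GUA1 had 11786 counts in the wild-type control and lay at -0.37 and -0.16 for the TIF4631 label. Purine salvage and interconversion had 19 measured genes of 20 listed. None passed the rule of size for the TIF4631 label, with list medians of 0.09 in wild type and -0.14 in deletion cells. AAH1, the adenine deaminase, was lower at -0.80 in wild type and stood at 0.22 in deletion cells, with an interaction of 1.02. The hypoxanthine-guanine phosphoribosyltransferase HPT1 stood at 0.56 and 0.14, the adenine phosphoribosyltransferase APT1 at -0.34 and 0.09, and the purine-cytosine permease FCY2 at -0.002 and 0.18. Under the TIF4631 plasmid the xanthine phosphoribosyltransferase XPT1 was past the rule of size, at -1.06 for deletion against wild type. Of all ORFs 3.98% passed that rule in either direction. There 7 of the 19 were lower by at least 0.5, where 10.7% of all ORFs were. AAH1 was higher there, at 0.94.

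The profile of ADE17 over the 4 libraries was set against those of the 4987 other kept ORFs, each as log2 levels centred on their own mean. By Euclidean distance the nearest were ICY1 at 0.465, the small heat shock protein gene HSP26 at 0.573, YER053C-A at 0.627, the ferric reductase gene FRE1 at 0.772 and the cell wall mannoprotein gene FIT2 at 0.785. The nearest members were ADE1 at 1.02 and ADE2 at 1.13, and the farthest was ADE8 at 1.73. The median profile of the members lay within 0.15 of its mean in every library. Its nearest ORFs were ARC18, HIS7, HAA1, MRX4 and EIS1, at distances of 0.054 to 0.062. With 4 points per profile these are descriptions of these libraries.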

How the data were processed

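Ribosome footprints were measured in 4 libraries, 1 per group. The deposited counts are reads per ORF, and the deposited RPKM values were scaled by the authors to ORF length and dataset reads, per the file headers. The submitters' processing notes name CASAVA, Bowtie2, cutadapt 1.3 and sacCer3. The sources used here do not give the counter or its filters. RPKM implied lengths 15 nt below the R64 gene length, within 0.01 nt, for 96.0% of matched ORFs.

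Of 5441 ORFs, 4997 with 200 or more counts in all were scaled by TMM (edgeR 4.0.16 in R 4.3.3, factors 0.971 to 1.02). Counting intervals (95%) and an additive edgeR quasi-likelihood model, with Benjamini-Hochberg adjustment over all genes, were computed and run on simulated data. Those data held counting error alone for the intervals and no interaction for the model. They therefore check the calculation and not how well the methods suit these libraries. DESeq2 1.42.0 and limma 3.58.1 gave alternatives. SE is the log2 change over the root of F, and the interaction's interval is a normal approximation. Reads may be PCR copies, so intervals cover counting error only, and p-values measure spread among these 4 libraries.

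Named genes are the members, TIF4631 and VPS35, fixed pathway genes, list genes past the rule of size and the 5 ORFs nearest in profile. HIS1, HIS3, HIS5, LEU2, MET17 and URA3 were named after their values were seen, and the motif search was added then. SHM1, CAN1 and LYP1 also lie outside the genes fixed for naming. The members and lists were chosen with earlier results of these data known. Sequences are from RefSeq R64. Python 3.11.15 was used with Biopython 1.88, scipy 1.17.1, pandas 2.3.3, matplotlib 3.10.9 and numpy 2.4.6.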

Additional observations from a re-analysis of the deposited data

Results flagged for a closer look

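For 3 members the TIF4631-label ratio took opposite directions in the 2 strains, higher in wild type and lower in vps35 deletion, with both counting intervals leaving out 0. The difference, deletion minus wild type, was -0.47 for ADE13, -0.32 for ADE16 and -0.54 for ADE12 on the log2 scale. Each side is 1 pair of libraries, so the difference was not tested against replicate spread. TIF4631 was raised in the deletion library and not in the library labelled wild type TIF4631, and strain and raised factor cannot be told apart here. For ADE12 the lower value in deletion cells, -0.09, no longer lay beyond counting error with total count scaling (-0.07), with no filter (-0.08) or with a filter of 1000 counts (-0.08).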

How the results depend on the processing

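Each comparison was repeated with total count scaling, DESeq2 size factors, total counts without the 50 most abundant ORFs, no filter, a filter of 1000 counts, and 5 counts added in place of 0.5. The number of members past the rule of size was the same in all 30 repeats. Each list median was held to the distance from the middle of a member's counting interval to its end, as the median over members. Of 30 repeats of a list median 29 moved by less than that. A single ratio was held to the same distance in its own interval. The exception was vps35 deletion against wild type under the TIF4631 plasmid, whose median became 0.000792 with total counts, and 6 single ratios of that comparison moved under that scaling. In the additive model 1 member in place of 0 passed for the TIF4631 plasmid under 6 alternatives. That member was ADE17 each time, with adjusted p of 0.00798 (total counts), 0.0280 (DESeq2 size factors), 0.0227 (without the 50 most abundant ORFs), 0.00246 (no filter), 0.0260 (filter of 1000 counts) and 1.68e-06 (DESeq2 test). With limma it was 0.0583. The log2 change of ADE17 lay between 1.39 and 1.41 in all of them. The cause was not tested. For vps35 deletion ADE5,7 reversed from -0.05 to 0.000437 with total counts. Leaving out the library labelled wild type TIF4631 leaves the additive model no residual degree of freedom, so the separate comparisons stand in its place. No paired analysis was possible because each group held 1 library. No ratio of a member beyond counting error in a comparison of libraries or in the interaction turned its sign, and ADE12 and ADE5,7 were the members whose interval came to hold 0 under some of these alternatives. For ADE12 this was in vps35 deletion under the control plasmid and in the TIF4631-label ratio of deletion cells, and for ADE5,7 in that ratio, in vps35 deletion under the TIF4631 plasmid and in the interaction. Depth limits ADE8 most, whose counting intervals were the widest among the members.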
